A study of Homo sapiens with 4 samples.

Results

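The 9 genes described here are established transcriptional targets of p53: CDKN1A, MDM2, GDF15, SESN1, ZMAT3, RRM2B, TP53I3, FDXR and GADD45A. They were chosen by name, and each symbol matched 1 of the 58884 Ensembl identifiers of the deposited table. Their RNA was followed in 4 libraries of human thyroid cancer cells, 1 library per group. 8505C, an anaplastic thyroid carcinoma line, and FTC-133, a follicular thyroid carcinoma line, were each transfected with a vector that overexpresses CRABP1 (cellular retinoic acid binding protein 1, a carrier of retinoic acid in the cytoplasm) or with the empty vector. The groups are therefore 8505C with CRABP1, 8505C with empty vector, FTC-133 with CRABP1 and FTC-133 with empty vector. The labels do not say whether the transfected cells were clones or pools, or how the libraries relate to separate cultures.

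p53 is a transcription factor that is stabilised by DNA damage and other stress and binds response elements near its target genes. Its targets stop the cell cycle, repair or replenish DNA precursors, alter metabolism or start apoptosis, and MDM2 closes a feedback loop by marking p53 for degradation. Several targets also answer to other stress factors: GDF15, GADD45A and SESN2 are known to be induced through ATF4 as well. Anaplastic thyroid cancers often lose p53 function.

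The p53 response element consensus consists of 2 copies of a 10-base unit with a 4-base core. It was searched in the RefSeq promoter windows (GRCh38.p14), which run from 250 bases before to 50 bases after a start site. Of the 9 members 7 had 14 such windows, whereas GADD45A and RRM2B had no window and were not searched. With at most 3 mismatches over the 20 bases and no spacer, 5 of the 14 windows held a match, against 5.20% of 35114 windows of all genes; with at most 2 mismatches 2 of the 14 did, an overlapping pair at the internal start of MDM2 that holds the same matches, against 0.649%. The matches are shown because they are the letters that the windows of these genes have in common with the p53 site, with the core of each unit in capitals:
MDM2, upstream match: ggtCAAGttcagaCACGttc
MDM2, downstream match: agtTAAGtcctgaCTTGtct
SESN1: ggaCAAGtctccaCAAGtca
FDXR: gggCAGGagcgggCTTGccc
GDF15: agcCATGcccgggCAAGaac
The MDM2 matches lie on the plus strand at chr12:68808923-68808942, with 2 mismatches, and chr12:68808961-68808980, with 3. Those of SESN1 (minus strand, chr6:109009018-109009037), FDXR (minus strand, chr17:74872996-74873015) and GDF15 (plus strand, chr19:18386186-18386205) each have 3. The first 4 sit upstream of the start they belong to, whereas the GDF15 match spans bases 29 to 48 after the start. MDM2 is transcribed from an upstream start and from an internal start that is the textbook p53-responsive one. Both of its matches lie in the 250 bases before the internal start (chr12:68808767-68809016), shown here because they carry the clearest p53 element among the members, with the matches in capitals:
MDM2, internal promoter: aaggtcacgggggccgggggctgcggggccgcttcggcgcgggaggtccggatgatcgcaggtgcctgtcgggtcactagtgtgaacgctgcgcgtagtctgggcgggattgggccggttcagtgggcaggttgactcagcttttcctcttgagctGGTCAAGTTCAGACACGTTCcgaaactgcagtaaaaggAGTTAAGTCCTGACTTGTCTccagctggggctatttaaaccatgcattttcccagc
For GDF15, the member whose level differed most between the lines, the same stretch before its start (plus strand, chr19:18385908-18386157) holds no match and is shown in lower case throughout:
GDF15, promoter: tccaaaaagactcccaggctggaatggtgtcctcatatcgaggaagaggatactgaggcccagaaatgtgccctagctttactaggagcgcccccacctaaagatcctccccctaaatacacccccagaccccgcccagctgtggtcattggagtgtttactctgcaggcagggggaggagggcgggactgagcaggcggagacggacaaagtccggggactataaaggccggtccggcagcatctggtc
The letters TGATGNAAN, the core of the element bound by ATF4 with C/EBP partners, were searched on both strands. They were in 0 of the 14 member windows and in 3.61% of all windows. So few windows cannot set 0 apart from that share, and GADD45A had no window to search. The windows of CDKN1A, TP53I3 and ZMAT3 held no p53 match. A match is a likeness of letters, and its absence says nothing about elements outside these windows.

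Behind the values stood between 19174557 and 20331464 reads per library, recovered from the TPM values as described under processing. TPM, a length-scaled share of all transcripts, divides a gene's reads by its length and gives every library an equal sum. CRABP1 itself was at 537 TPM in 8505C with CRABP1 and 385 TPM in FTC-133 with CRABP1, and at 0 TPM in both vector libraries, where 0 reads allow up to 0.594 and 0.555 TPM. Of the thyroid markers, PAX8 was at 0.161 and 0.240 TPM in 8505C with CRABP1 and vector and at 143 and 100 TPM in FTC-133. The iodide transporter gene SLC5A5 was at or near 0 in every library, as was the leukocyte marker PTPRC, at no more than 0.194 TPM. The thyroid transcription factor gene NKX2-1 ran opposite to PAX8, at 113 and 118 TPM in 8505C with CRABP1 and vector and 17.7 and 44.7 TPM in FTC-133. HHEX ran the same way as NKX2-1, and FOXE1 the same way as PAX8. The summed level of 6 fibroblast markers was 78.4 and 56.9 TPM in 8505C with CRABP1 and vector and 388 and 649 TPM in FTC-133. COL3A1 and DCN ran against that sum and the rest with it. COL3A1 was at 66.0 and 50.0 TPM in 8505C and 2.95 and 3.18 TPM in FTC-133. Of 5 endothelial markers CDH5 alone made up most of the level in 8505C, at 97.9 and 103 TPM with CRABP1 and vector. In FTC-133 it was at 0.125 and 0 TPM. KDR and TEK ran against CDH5. KDR was at 0.210 and 0.719 TPM in 8505C with CRABP1 and vector and 3.18 and 2.04 TPM in FTC-133. TEK was at 0.205 and 0.696 TPM in 8505C and 3.91 and 1.95 TPM in FTC-133. PECAM1 ran the same way as CDH5, and VWF stayed below 1 TPM in all 4 libraries. Of 5 leukocyte markers CD14 alone was above 1 TPM, at 28.6 and 56.5 TPM in 8505C with CRABP1 and vector and 0.345 and 0.669 TPM in FTC-133. The summed level of 5 epithelial markers was 1365 and 1604 TPM in 8505C and 169 and 171 TPM in FTC-133. KRT8 and KRT18 made up most of it in both lines. EPCAM, KRT19 and CDH1 ran the other way, with EPCAM at 0.235 and 0.546 TPM in 8505C and 5.87 and 6.13 TPM in FTC-133. These levels differ between the lines, and their part in the results was not tested. In bulk RNA, fewer cells that express a gene and less RNA per cell cannot be told apart.

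**Figure D1:**
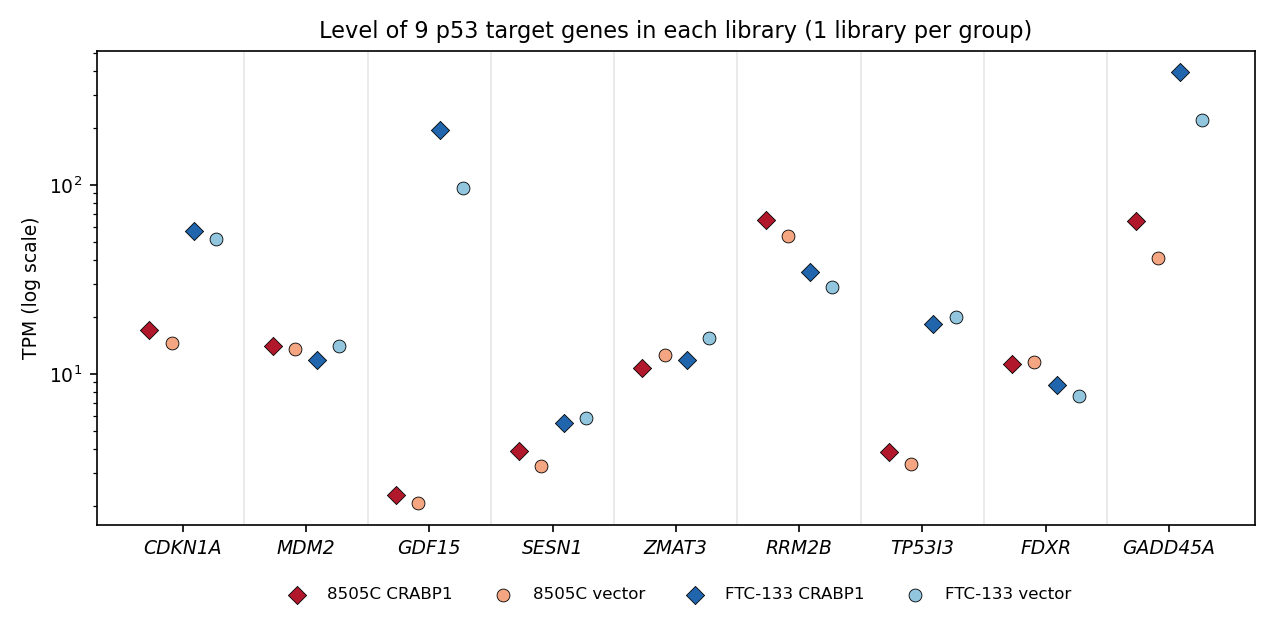
TPM (log axis) of the 9 p53 targets in the 4 libraries; diamonds are CRABP1 libraries, circles vector libraries, and each point is 1 library. GDF15, GADD45A, CDKN1A and TP53I3 lie lower in both 8505C libraries than in both FTC-133 libraries, RRM2B lies higher, and MDM2 keeps between 11.9 and 14.1 TPM.

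The clearest contrast in these genes lay between the lines. GDF15, GADD45A, TP53I3 and CDKN1A were lower in 8505C than in FTC-133, RRM2B was higher, and MDM2, ZMAT3, SESN1 and FDXR did not pass the test. With limma (log2 of TPM + 1, transfection as a block, Benjamini-Hochberg adjustment over 19513 genes), 5 of the 9 members were called, 1 higher and 4 lower in 8505C. Of all genes tested 35.2% were called, 13.0% higher and 22.2% lower, so 5 of 9 is to be read against a background of about the same order. In this test the 2 libraries of a line differ in transfection and the fit leaves 1 residual degree of freedom, so its p-values reflect nothing but how these 4 libraries scatter, which may be technical.

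GDF15, a secreted stress cytokine of the TGF-beta superfamily, showed the widest separation. It was at 2.27 and 2.07 TPM in 8505C with CRABP1 and vector, from 24 and 22 reads, and at 194 and 96.4 TPM in FTC-133 with CRABP1 and vector, from 2137 and 1095 reads. Both 8505C libraries thus lay far under both FTC-133 libraries. The mean of 2.17 TPM in 8505C against 145 TPM in FTC-133 is a 66.9-fold lower level, and the log2 difference of TPM + 1 was -5.44 (SE 0.27, adjusted p = 0.00423). In FTC-133 with CRABP1 it ranked 580 among all genes by TPM, against 14222 in 8505C with CRABP1. The gene lies on chromosome 19 (18374731 to 18389176, plus strand, GENCODE 29 on GRCh38).

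GADD45A, a small growth-arrest protein that binds PCNA and stress kinases, was the most abundant member in FTC-133. Its levels were 64.6 and 41.1 TPM in 8505C with CRABP1 and vector, and 394 and 220 TPM in FTC-133 with CRABP1 and vector. The lines did not overlap, and the log2 difference was -2.49 (SE 0.10, adjusted p = 0.00367), a 5.82-fold lower mean in 8505C. Its paralog GADD45B differed less, at 60.6 and 49.2 TPM in 8505C with CRABP1 and vector and 83.9 and 85.0 TPM in FTC-133 (log2 difference -0.62, SE 0.13, adjusted p = 0.0349). That call was lost in 3 of 6 alternatives, with adjusted p up to 0.101. GADD45G had at most 2 reads in any library. GADD45A lies on chromosome 1 (67685061 to 67688338, plus strand).

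CDKN1A encodes p21, the inhibitor of cyclin-dependent kinases through which p53 stops the cell cycle. It was at 17.1 and 14.5 TPM in 8505C with CRABP1 and vector, and at 57.0 and 51.7 TPM in FTC-133 with CRABP1 and vector. Its mean was 3.44-fold lower in 8505C, with a log2 difference of -1.72 (SE 0.11, adjusted p = 0.00574). The related inhibitor CDKN1B went the other way, at 110 and 105 TPM in 8505C and 68.9 and 62.4 TPM in FTC-133 with CRABP1 and vector (log2 difference 0.71, SE 0.10, adjusted p = 0.0164, but 0.0599 without a filter on low values and 0.0655 without a trend). CDKN1A lies on chromosome 6 (36676460 to 36687339, plus strand); the antisense gene DINOL, which shares 146 bases of its exons, was at 0 TPM in all 4 libraries.

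TP53I3, a quinone oxidoreductase also called PIG3 that is linked to the redox arm of the p53 response, was at 3.84 and 3.32 TPM in 8505C with CRABP1 and vector. In FTC-133 it was at 18.3 and 19.9 TPM with CRABP1 and vector. All 8505C values lay under all FTC-133 values, with a log2 difference of -2.13 (SE 0.18, adjusted p = 0.00777). It shares 80 exon bases with FAM228B on the opposite strand, which was at 6.48 and 7.86 TPM in 8505C and 1.92 and 1.75 TPM in FTC-133 with CRABP1 and vector. How far those reads entered TP53I3 was not tested, since no strand setting is given in the sources used here.

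RRM2B, the p53-inducible small subunit of ribonucleotide reductase that supplies DNA precursors outside S phase, was the 1 member called higher in 8505C. Its levels were 64.9 and 53.8 TPM in 8505C with CRABP1 and vector, and 34.6 and 28.7 TPM in FTC-133 with CRABP1 and vector. The log2 difference was 0.88 (SE 0.10, adjusted p = 0.0126). Without a filter on low values the difference of 0.88 missed the threshold (adjusted p = 0.0537; 0.00794 to 0.0537 over all alternatives). The large subunit RRM1 differed by 0.39 (SE 0.09, adjusted p = 0.0465) and the S-phase small subunit RRM2 by 0.42 (SE 0.11, adjusted p = 0.0618), on either side of the threshold. The RRM1 call was lost in 3 of 6 alternatives, with adjusted p up to 0.154.

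MDM2, the ubiquitin ligase that limits p53, was the most even member. It was at 14.1 and 13.6 TPM in 8505C with CRABP1 and vector and at 11.9 and 14.1 TPM in FTC-133 with CRABP1 and vector, so that the lines overlapped (log2 difference 0.09, SE 0.16, adjusted p = 0.673). Its partner MDM4 did not pass either (log2 difference -0.19, SE 0.12, adjusted p = 0.279). ZMAT3, a zinc finger protein that binds RNA and regulates splicing and RNA stability, also overlapped, at 10.7 and 12.5 TPM in 8505C with CRABP1 and vector and 11.8 and 15.5 TPM in FTC-133 (log2 difference -0.21, SE 0.15, adjusted p = 0.327).

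SESN1 and FDXR separated the lines by small amounts that did not pass. SESN1, a sestrin that restrains mTORC1, was at 3.89 and 3.26 TPM in 8505C with CRABP1 and vector and 5.48 and 5.81 TPM in FTC-133 with CRABP1 and vector (log2 difference -0.54, SE 0.22, adjusted p = 0.135). Its paralogs SESN2, at -2.79 (SE 0.18, adjusted p = 0.00555), and SESN3, at -2.00 (SE 0.19, adjusted p = 0.00911), were lower in 8505C, though SESN3 missed the threshold without a filter on low values (adjusted p = 0.0517). FDXR, the mitochondrial reductase that passes electrons from NADPH to ferredoxins, was at 11.2 and 11.6 TPM in 8505C with CRABP1 and vector and 8.74 and 7.60 TPM in FTC-133 (log2 difference 0.44, SE 0.16, adjusted p = 0.117). Its ferredoxin partner FDX1 was between 24.0 and 31.5 TPM in the 4 libraries.

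**Figure D2:**
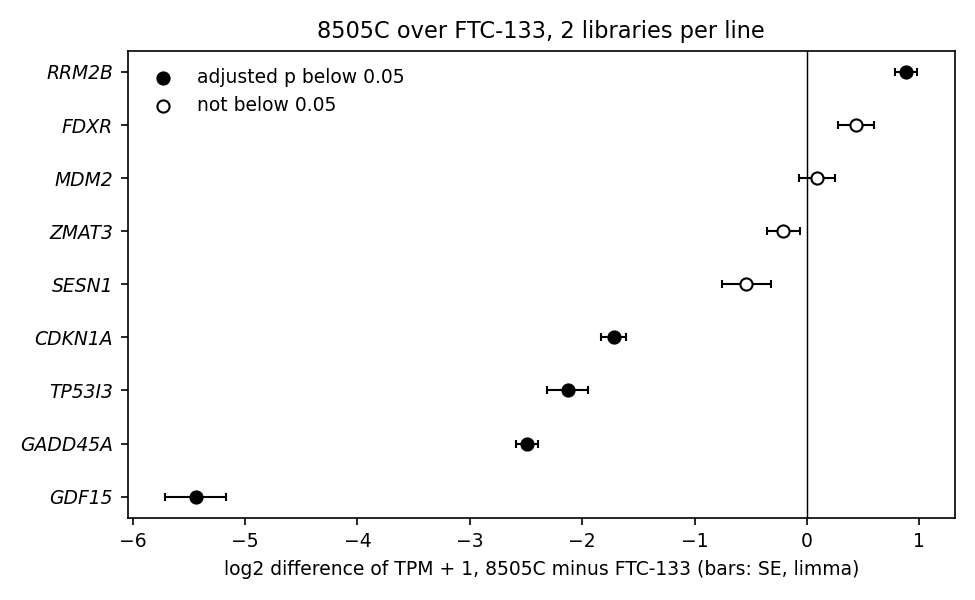
Log2 difference of TPM + 1 between 8505C and FTC-133 for each member, with bars of 1 SE from limma over 2 libraries per line; filled points had an adjusted p below 0.05. RRM2B is at 0.88 and the 4 filled points on the other side run from -1.72 for CDKN1A to -5.44 for GDF15.

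Within a library the order of the 9 members changed between the lines and hardly with CRABP1. RRM2B was highest and GDF15 lowest in both 8505C libraries. In 8505C with CRABP1, however, RRM2B at 64.9 TPM and GADD45A at 64.6 TPM are not ordered by these data. GADD45A was highest, followed by GDF15, CDKN1A, RRM2B and TP53I3, and SESN1 was lowest, in both FTC-133 libraries. With CRABP1 the highest member stood 28.6-fold above the lowest in 8505C and 72.0-fold in FTC-133, and with vector 25.9-fold and 37.9-fold. These orders are of TPM, so that a gene's annotated length enters them, from 2069 bases for GADD45A to 13284 for MDM2. Neighbours such as MDM2 and ZMAT3, at 11.9 and 11.8 TPM in FTC-133 with CRABP1, are not ordered by these data.

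Some genes that act upstream of p53 also differed between the lines. TP63 and TP73, relatives of p53, stayed below 1 TPM in all 4 libraries. Among 17 tested genes of the p53 family and its regulators, 1 was called higher in 8505C, the kinase ATM at 0.67 (SE 0.11, adjusted p = 0.0245), and 4 lower. Of all genes tested 35.2% were called, 13.0% higher and 22.2% lower, so 5 of 17 is no more than the background. Without a filter on low values 1 of these 5 calls was kept, and without limma's trend 2 were; CDKN2A was kept in both. CDKN2A, whose locus encodes the MDM2 inhibitor ARF besides p16, had a log2 difference of -1.53 (SE 0.11, adjusted p = 0.00653). The others were the kinases CHEK2 and HIPK2 and the p53-binding protein TP53BP1, with differences between -0.93 and -0.89. Unfiltered, the adjusted p was 0.0716 for ATM, 0.0663 for CHEK2, 0.0803 for HIPK2 and 0.0522 for TP53BP1.

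Other p53 targets also differed between the lines in both directions. The counts below are to be read against all genes tested, of which 35.2% were called, 13.0% higher in 8505C and 22.2% lower. The feedback and cell cycle targets, with 5 of 15 called, were near that share. Of 14 tested apoptosis targets, 2 were called higher in 8505C and 9 lower, with a median log2 difference of -1.10. Without a filter on low values 2 higher and 4 lower were called: BBC3, BAX, FAS, TNFRSF10B and AEN missed the threshold, with adjusted p between 0.0522 and 0.127. PERP, a membrane protein of desmosomes, was at 167 and 179 TPM in 8505C with CRABP1 and vector and at 1.72 and 1.27 TPM in FTC-133 (log2 difference 6.13, adjusted p = 0.00336), and the decoy death receptor TNFRSF10D was higher by 5.26 (adjusted p = 0.00355). EDA2R at -3.49, PMAIP1 (the BH3-only protein NOXA) at -2.44 and the death receptor FAS at -1.74 were among the lower ones. The 15 feedback and cell cycle targets split into 3 higher and 2 lower, the 8 DNA repair targets into 3 and 2, and the 11 metabolism and autophagy targets into 2 and 4. Unfiltered, 2, 0 and 2 of these 5, 5 and 6 calls were kept, and without a trend 3, 1 and 4 were. The lncRNA PURPL was at 0.829 and 0.936 TPM in 8505C and 75.2 and 122 TPM in FTC-133 with CRABP1 and vector, a log2 difference of -5.68 (adjusted p = 0.00342). Among 8 stress-response genes, which include ATF4 but also enzymes such as asparagine synthetase (ASNS), 6 were lower in 8505C and 0 higher. Of these 6 calls, 3 were kept without a filter. The ATF4 gene itself, at -0.39, missed the threshold (adjusted p = 0.0509), and its partner gene DDIT3 was at -3.41 (adjusted p = 0.00336).

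With CRABP1, 2 members stood out within the lines. GADD45A was higher with CRABP1 in both lines, and the GDF15 level in FTC-133 was 2.01-fold that of vector. RRM2B was slightly higher and ZMAT3 slightly lower in both lines. No test exists within a line, since each group is 1 library: ratios are of TPM, and their 95% intervals (Clopper-Pearson on the recovered reads) cover counting error only. By a 2-fold rule on TPM + 1, 0 of 9 members passed in 8505C and 1 of 9, GDF15, in FTC-133. Of all genes averaging 1 TPM or more, 7.77% of 17561 passed in 8505C and 10.9% of 19899 in FTC-133. Of the protein-coding ones with 20 reads or more, as all members had, 0.733% and 3.53% passed. At 1.5-fold, GADD45A was the 1 member that passed in 8505C, against 15.0% of all genes and 3.80% of the protein-coding ones. In FTC-133 GADD45A and GDF15 passed at 1.5-fold, against 22.7% and 11.5%.

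GADD45A was at 64.6 TPM with CRABP1 and 41.1 TPM with vector in 8505C, a ratio of 1.57 (1.39 to 1.78). In FTC-133 it was at 394 TPM with CRABP1 and 220 TPM with vector, a ratio of 1.79 (1.70 to 1.88). Its log2 ratios of TPM + 1, 0.64 and 0.84, exceeded those of 98.8% of 12009 protein-coding genes in 8505C and 96.8% of 12763 in FTC-133. By limma over both lines, with cell line as a block, the log2 difference was 0.74 (SE 0.10), higher in 2 of 2 lines; its unadjusted p of 0.00284 ranked 31 of 19513 genes, and it did not pass adjustment (adjusted p = 0.920, and 0.844 at the lowest over the alternatives).

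GDF15 was at 194 TPM with CRABP1 and 96.4 TPM with vector in FTC-133, a ratio of 2.01 (1.87 to 2.17) and a log2 ratio of 1.0 that sits on the edge of the 2-fold rule. In 8505C the same ratio was 1.09, with an interval of 0.588 to 2.05 from 24 and 22 reads. That interval includes both no difference and the FTC-133 ratio. The difference of the log2 ratios, 8505C minus FTC-133, was -0.88 with a counting interval of -1.72 to -0.04 and was not tested, as no residual spread remains. Rescaling the libraries by their median ratio took the FTC-133 value to 0.94, below 2-fold.

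The other 7 members had ratios nearer 1. RRM2B was 1.21-fold higher with CRABP1 in 8505C (1.13 to 1.29) and 1.21-fold higher in FTC-133 (1.10 to 1.32). ZMAT3 had a ratio of 0.860 in 8505C (0.764 to 0.968) and 0.764 in FTC-133 (0.686 to 0.850), lower in both. CDKN1A, at 1.18 in 8505C (0.985 to 1.42) and 1.10 in FTC-133, had intervals that reached down to about 1. MDM2 was at 1.04 in 8505C (0.951 to 1.14) and 0.841 in FTC-133 (0.766 to 0.922). The intervals of SESN1, TP53I3 and FDXR included 1 in both lines, with ratios from 0.920 for TP53I3 to 1.15 for FDXR in FTC-133 and from 0.970 for FDXR to 1.19 for SESN1 in 8505C.

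**Figure D3:**
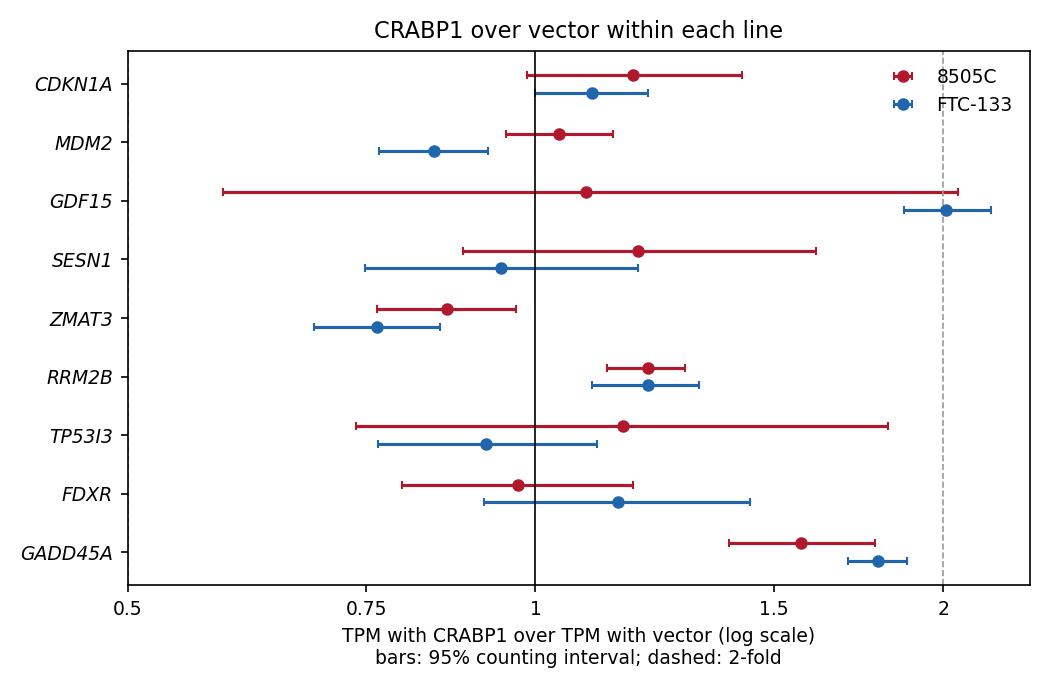
Ratio of TPM with CRABP1 over TPM with vector (log axis) for each member in 8505C and FTC-133, with 95% intervals for counting error from 1 library per group. GADD45A and RRM2B lie right of 1 and ZMAT3 left of 1 in both lines, and GDF15 in FTC-133 is at the dashed 2-fold line.

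Over both lines 0 of 9 members passed limma for CRABP1 over vector, against 0.00512% of 19513 genes, which is CRABP1 alone. At an unadjusted p under 0.05 there was 1 member, GADD45A, against 4.73% of all genes. RRM2B had a log2 difference of 0.26 (SE 0.10, adjusted p = 0.920) and ZMAT3 one of -0.28 (SE 0.15, adjusted p = 0.920). GDF15, at 0.55 (SE 0.27), and CDKN1A, at 0.18 (SE 0.11), had the same adjusted p. The median log2 ratio of the 9 members was 0.16 in 8505C and 0.14 in FTC-133, with 7 and 5 of 9 above 0. Over all measured genes the medians were 0.02 and 0.06, and 54.7% and 57.8% were above 0.

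Most other p53 targets were also near 1 with CRABP1. Of 15 feedback and cell cycle targets, 8 were higher in 8505C with a median log2 ratio of 0.02, and 10 in FTC-133 with a median of 0.12. BTG2, an antiproliferative gene, passed 2-fold downward in 8505C, at 4.36 TPM with CRABP1 and 9.91 TPM with vector (log2 ratio -1.02), and was at 5.43 and 2.40 TPM in FTC-133 with CRABP1 and vector (0.92). TRIM22 passed upward in FTC-133, at 12.8 TPM with CRABP1 and 3.80 TPM with vector (1.52); it is also an interferon-induced gene. SFN, the checkpoint protein 14-3-3 sigma, was at -0.80 in FTC-133 and 0.08 in 8505C. The kinase PLK3 was at 0.43 in 8505C and 0.49 in FTC-133.

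Of 14 measured apoptosis targets in 8505C and 12 in FTC-133, 6 and 8 were higher and 0 passed 2-fold in either line. FAS was at 8.98 TPM with CRABP1 and 15.3 TPM with vector in 8505C (log2 ratio -0.70). In FTC-133, BBC3 (the BH3-only protein PUMA) was at 0.75 and the death receptor TNFRSF10B at 0.62. The 8 DNA repair targets had medians of -0.02 in 8505C and 0.16 in FTC-133, with 0 past 2-fold; PCNA was at 0.20 and 0.35 in that order of lines. Among metabolism and autophagy targets, SESN2 passed 2-fold in 8505C, at 15.8 TPM with CRABP1 and 6.42 TPM with vector (ratio 2.47, 1.97 to 3.09), and was at 95.9 and 60.8 TPM in FTC-133 (1.58, 1.46 to 1.70). DRAM1, a lysosomal autophagy protein, at 52.0 TPM with CRABP1 and 21.2 TPM with vector, and SUSD6, with a log2 ratio of 1.24, passed upward in FTC-133, and LAPTM5, a lysosomal protein, passed downward at 5.05 and 16.2 TPM.

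The stress-response genes were mostly higher with CRABP1. ATF4, the transcription factor named above for GDF15, GADD45A and SESN2, was at 495 TPM with CRABP1 and 337 TPM with vector in 8505C and at 654 and 438 TPM in FTC-133 with CRABP1 and vector. Of the 8 stress-response genes, 8 were higher in 8505C and 7 in FTC-133, with median log2 ratios of 0.53 and 0.55, and 2 and 1 passed 2-fold. Over all measured genes 54.7% were higher in 8505C and 57.8% in FTC-133, and 7.77% and 10.9% passed 2-fold. Of the protein-coding ones with 20 reads or more, 0.733% and 3.53% passed. The pair past 2-fold in 8505C were CHAC1, a glutathione-degrading enzyme, and ASNS, asparagine synthetase. CHAC1 had 199 reads with CRABP1 and 15 with vector in 8505C, a TPM ratio of 13.2 (7.88 to 24.2; log2 ratio of TPM + 1 of 3.04), and was at 56.2 and 50.1 TPM in FTC-133 (0.16). The difference of its log2 TPM ratios, 8505C minus FTC-133, was 3.56, with a counting interval of 2.79 to 4.34, and was not tested. ASNS was at 2.30 and 0.402 TPM in 8505C, from 52 and 9 reads (1.23), and at 20.7 and 13.1 TPM in FTC-133 (0.62). The gene past 2-fold in FTC-133 was TRIB3, a pseudokinase, with log2 ratios of 0.50 in 8505C and 1.13 in FTC-133. PPP1R15A was at 0.22 and 0.78 in that order of lines. The part of ATF4 in the values of GADD45A, GDF15 and SESN2 was not tested. Of these 8 genes, 0 passed limma over both lines after adjustment, and 6 had an unadjusted p under 0.05, against 4.73% of all genes. They were listed with earlier results of these data known.

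Cell cycle genes that p53 represses through p21 and the DREAM complex mostly had ratios above 1 in 8505C and below 1 in FTC-133, a difference that was not tested. Of 12, 11 were higher with CRABP1 in 8505C (median log2 ratio 0.19) and 10 lower in FTC-133 (median -0.17), with 0 past 2-fold. Over all measured genes 54.7% were higher in 8505C and 57.8% in FTC-133. MYBL2 was higher in both lines (0.38 in 8505C, 0.25 in FTC-133) and CCNA2 was below 0 in both (-0.03 and -0.12). In 8505C the CCNA2 ratio was 0.983, with a counting interval of 0.915 to 1.05 that included 1. The counts above go by sign alone, and the intervals of some other genes counted also included 1. TOP2A was at 689 TPM with CRABP1 and 544 TPM with vector in 8505C, and at 389 TPM with CRABP1 and 453 TPM with vector in FTC-133. CDKN1A had a ratio above 1 in both lines beside these.

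**Figure D4:**
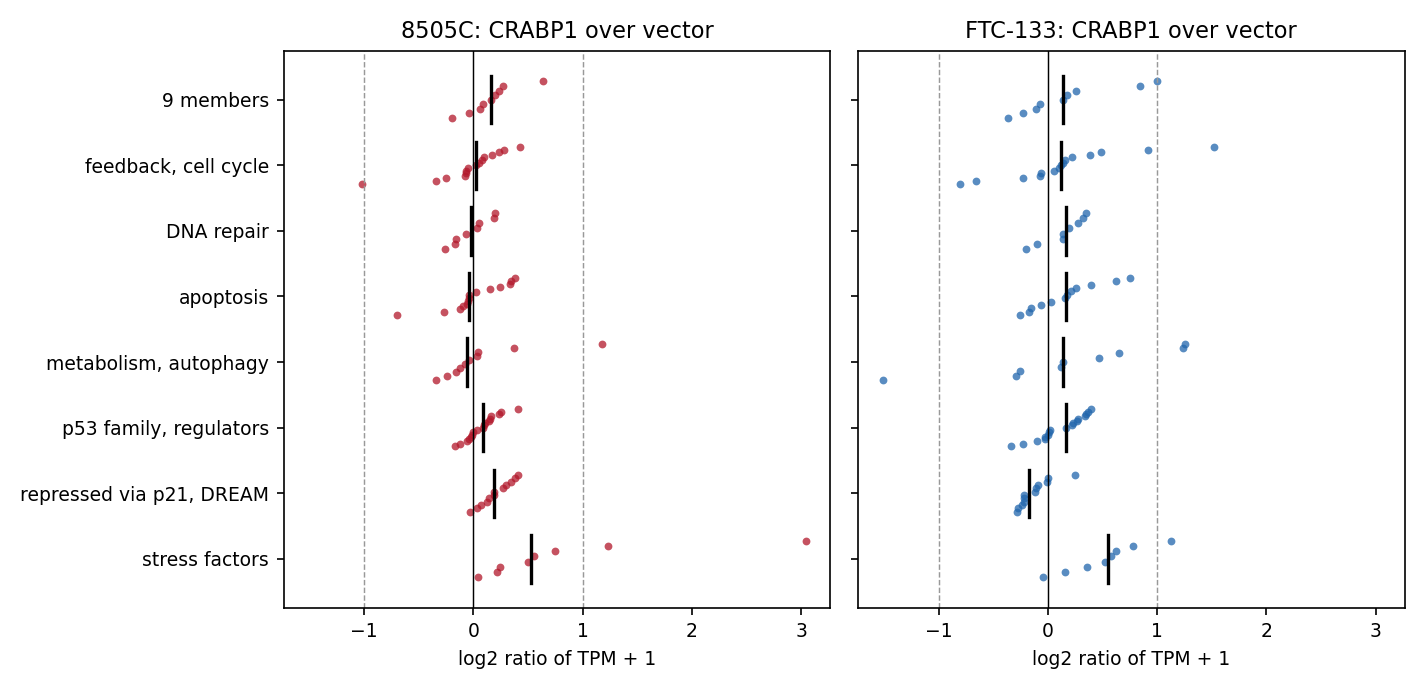
Log2 ratio of TPM + 1, CRABP1 over vector, in 8505C and FTC-133; each point is 1 gene averaging 1 TPM or more, black bars are medians and dashed lines mark 2-fold. The stress-response genes (labelled stress factors) have medians of 0.53 and 0.55, and the genes repressed via p21 and DREAM have medians of 0.19 and -0.17.

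The pattern of a member over the 4 libraries was compared with that of 10569 other protein-coding genes averaging 5 TPM or more, as the Euclidean distance of centred log2 values of TPM + 1. GADD45A had 0 genes within 0.2; LONRF1 and GMPR were near it, at distances of 0.266 and 0.268. GDF15 had 1 gene within 0.2, ALDH1L2 at 0.157, which was at 0.208 and 0.248 TPM in 8505C and 72.5 and 40.1 TPM in FTC-133 with CRABP1 and vector. TP53I3 had 16 such genes, led by HLA-DMA, and CDKN1A 29, led by ZFP69. By contrast 727 genes lay within 0.2 of MDM2 and 670 within 0.2 of FDXR. With 4 libraries, likeness of this kind rests mostly on the difference between the lines.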

How the data were processed

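Total RNA of 4 libraries was sequenced, and the authors deposited 1 table of TPM values for 58884 Ensembl genes; each column sums to 1000000. The submitters' processing notes name GRCh38, featureCounts 2.0.0, Trimmomatic 0.38 and FastQC; aligner, annotation and strandedness were not given in the sources used here. A name table paired 58472 identifiers with symbols. The product of TPM and GENCODE 29 union exon length (58611 identifiers) came in equal steps, 1 step size for each library: 90.5% to 91.6% of values of up to 50 reads were within 0.02 of a whole read. These steps gave the read numbers, which served for counting intervals (95%), floors (3 reads) and the minimum of 20 reads. The values of MDM2, ZMAT3 and GADD45A were not whole to that tolerance, so that their reads are approximate.

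Ratios were log2 of TPM + 1 over genes averaging 1 TPM or more, which understates ratios of low genes; ratios with an interval are of plain TPM. limma 3.58.1 in R 4.3.3 fitted cell line and transfection with a mean-variance trend, two-sided, with Benjamini-Hochberg adjustment at 0.05, and was tested on simulated data. Python 3.11.15, pandas 2.3.3, NumPy 2.4.6 and SciPy 1.17.1 were used. The members, lists and the rule for names were chosen with earlier results of these data known. All 9 members are named, and some genes that the rule would name are not reported here; other list genes are among the 3 with the largest ratio each way in a line, paralogs or, for the comparison of lines, genes picked after their values were seen. Alternatives were a pseudocount of 0.1, no filter, 5 TPM, median-ratio scaling, removal of mitochondrially encoded genes, 1.5-fold, no trend and no block.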

Additional observations from a re-analysis of the deposited data

Results flagged for a closer look

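The genes compared here were the members and all other lists except the cell type markers. They include paralogs of members, the stress-response genes and FDX1 besides p53 targets and regulators. Of the 96 measured in both lines, 11 had counting intervals on opposite sides of 1 in the lines, and 0 of the 9 members were among these 11. That is 11.5%, against 9.24% of 15557 genes averaging 1 TPM or more in both lines (1438 genes), so the share is near that of all genes. The difference between the lines was not tested, since each group is 1 library. Values are log2 ratios of TPM + 1, CRABP1 over vector. Below 0 in 8505C but above 0 in FTC-133 were BTG2 at -1.02 in 8505C and 0.92 in FTC-133, PLK2 at -0.05 in 8505C and 0.39 in FTC-133, RPS27L at -0.16 in 8505C and 0.19 in FTC-133 and the lncRNA NEAT1 at -0.27 in 8505C and 0.16 in FTC-133. The reverse held for the p53 phosphatase gene PPM1D at 0.23 in 8505C and -0.23 in FTC-133 and the translesion polymerase gene POLH at 0.19 in 8505C and -0.20 in FTC-133. The remaining 5 were mitotic and replication genes: CCNB1 at 0.27 in 8505C and -0.22 in FTC-133, CDK1 at 0.41 in 8505C and -0.11 in FTC-133, CDC20 at 0.30 in 8505C and -0.27 in FTC-133, TOP2A at 0.34 in 8505C and -0.22 in FTC-133, and AURKA at 0.14 in 8505C and -0.28 in FTC-133.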

How the results depend on the processing

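Each group is 1 library, and no result within a line has a replicate. The labels give no replicate numbers; cell line served as the block that pairs CRABP1 with vector, and transfection as the block between the lines. Without the block 0 of 9 members passed for CRABP1 and 5 of 9 for 8505C over FTC-133, as with it. The 1 member past 2-fold in FTC-133, GDF15, became 0 with median-ratio scaling and 0 without mitochondrially encoded genes, where its log2 ratio was 0.94 and 0.95. At 1.5-fold, 1 member passed in 8505C and 2 in FTC-133. At a mean of at least 5 TPM, 4 members were above 0 in 8505C in place of 7, because fewer members were measured. The wider lists include paralogs and stress-response genes besides p53 targets and regulators. Past 2-fold they held 3 genes above and 1 below 0 in 8505C, and 4 above and 1 below in FTC-133. The 3 in 8505C were SESN2 and the stress-response genes CHAC1 and ASNS. At 1.5-fold 2 were below in 8505C, and 10 above and 5 below in FTC-133. The log2 difference of TP53I3 with CRABP1 over both lines, 0.03, was -0.01 with median-ratio scaling. RRM2B in 8505C over FTC-133 kept 0.88 without a filter but had an adjusted p of 0.0537 (0.00794 to 0.0537 over its alternatives), so that 4 members passed there; all 5 passed under the other alternatives. Calls of other list genes between the lines were lost mostly without the filter and without the trend, as given beside them. The number of all genes called for the lines without the filter was 1182 in place of 6877. The single call for CRABP1 over vector, CRABP1 itself, stayed 1 at 5 TPM and became 0 without the block, without a trend, under median-ratio scaling, unfiltered and at 0.1 as pseudocount.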
